A study of Homo sapiens with 12 samples.

Results

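Matrix metalloproteinases (MMPs) are zinc-dependent enzymes that cut collagens, elastin, proteoglycans and other proteins outside the cell, and tissue inhibitors of metalloproteinases (TIMPs) are small secreted proteins that bind MMPs and block their catalytic site. Several MMPs are classical members of the senescence-associated secretory phenotype (SASP), the set of cytokines, chemokines and proteases that senescent fibroblasts release. The balance of MMPs against TIMPs is a usual way to describe how strongly fibroblasts can degrade the surrounding matrix, and transcript levels such as those measured here say nothing of proenzyme activation, secretion or binding.

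Described here are 10 genes, 6 MMPs (MMP1, MMP2, MMP3, MMP10, MMP12 and MMP14) and 4 TIMPs (TIMP1 to TIMP4), chosen by symbol from the 57500 genes of an RNA-sequencing count table. Each symbol matched 1 row. All 10 genes passed a filter on low counts that left 16251 genes for testing. The table holds 12 libraries of MRC5 cells, a human embryonic lung fibroblast line, in 4 groups of 3. The Proliferative group was neither irradiated nor treated. The Sen(IR) group was made senescent with 20 Gy of X-rays. The Sen(IR+UK5099) group was irradiated in the same way and kept in UK5099, an inhibitor of the mitochondrial pyruvate carrier, at 100 μM. The Sen(IR+CTPI2) group was irradiated and kept in CTPI2, an inhibitor of the mitochondrial citrate carrier SLC25A1, for which the methods give 15 or 30 μM without saying which was sequenced. Per the methods, both inhibitors were added the day after irradiation and kept in the medium for 12 days. The treatment thus covered the period in which senescence developed. Irradiated cells were collected 10 to 12 days after irradiation. All groups are 1 cell line, no group received an inhibitor without irradiation, and a vehicle control is not described for these libraries.

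Total counts per library ran from 20597736 to 28245693. Levels are given as CPM, counts scaled to a common library size with TMM factors, and comparisons between genes as CPM per kb of annotated exon. A gene was called changed when edgeR's quasi-likelihood test gave a Benjamini-Hochberg adjusted p under 0.05 and the absolute log2 fold change exceeded 0.5. The summed level of 10 fibroblast markers, among them the collagen genes COL1A1, COL1A2 and COL3A1, was 21290 to 25320 CPM in Proliferative, 20530 to 21110 in Sen(IR), 18140 to 19910 with CTPI2 and 10890 to 11380 with UK5099. Fibroblast markers were thus abundant in every group. Epithelial markers summed to at most 2.04 CPM, and the epithelial markers CDH1, KRT5, KRT14 and SFTPC, the endothelial markers PECAM1 and CDH5 and the immune marker PTPRC did not pass the filter. TEK accounted for most of an endothelial sum of 157.3 to 366.7 CPM, and the immune sum was 0.386 to 0.554 CPM in Proliferative and 2.71 to 5.03 CPM in the irradiated groups, where CD14 made up most of it.

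In the genome (GRCh38, GENCODE v44) 4 of the 10 genes are neighbours. MMP10 (chr11:102770502-102780628), MMP1 (chr11:102789401-102798160), MMP3 (chr11:102835801-102843609) and MMP12 (chr11:102862736-102874982), all on the minus strand, lie in a cluster of 9 MMP genes that spans 435.2 kb of chromosome 11. The other 5 cluster genes, MMP7, MMP20, MMP27, MMP8 and MMP13, had at most 4 counts in any library and were not tested. The remaining members lie apart, MMP2 at chr16:55389700-55506691, MMP14 at chr14:22836560-22849041, TIMP1 at chrX:47582408-47586789, TIMP2 at chr17:78852977-78925387, TIMP3 at chr22:32801705-32863041 and TIMP4 at chr3:12153068-12158912. TIMP1, TIMP3 and TIMP4 sit within the synapsin genes SYN1, SYN3 and SYN2 on the opposite strand. Of these only SYN2 shares exon sequence with its TIMP, over 14.24% of the exon bases of TIMP4, and it had 3 to 23 counts per library. MMP1 shares 8.145% and MMP3 1.726% of its exon bases with the pseudogene WTAPP1, which had at most 5 counts. TIMP2 shares 9.518% with CEP295NL and ENSG00000267601, which had at most 9 and 0 counts. MMP2 shares 3.697% of its exon bases with ENSG00000279030, which had at most 25 counts. ENSG00000279030 and CEP295NL lie on the same strand as MMP2 and TIMP2, so strand cannot separate their reads. Reads from the overlaps on opposite strands could not be assigned by strand here, since the library type is not stated. MMP3 and MMP10, which are close relatives, share 59 stretches of 50 bases in their transcripts (3.18% of those of MMP3 and 3.36% of those of MMP10), and reads lying wholly in these were not counted if they mapped to both.

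The sequence just upstream of the start was read for the members that changed and that have a promoter entry in RefSeq (GRCh38.p14), to show the sequences of 4 genes called in different comparisons. AP-1 is the FOS and JUN family of factors, for which MMP promoters are textbook targets. Capitals mark the AP-1 letters TGANTCA, which read the same on both strands, and the TATA box letters TATAAA. Positions are counted back from the base before the RefSeq start (-1), and the windows of MMP14 and TIMP1 end at -26 and -29 because annotated exons begin there.
MMP10 (chr11:102780629-102780878, minus strand, -250 to -1): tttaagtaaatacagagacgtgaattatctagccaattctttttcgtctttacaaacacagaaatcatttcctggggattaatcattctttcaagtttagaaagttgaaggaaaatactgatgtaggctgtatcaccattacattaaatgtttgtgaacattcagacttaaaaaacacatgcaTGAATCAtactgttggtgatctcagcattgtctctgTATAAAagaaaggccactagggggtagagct
MMP14 (chr14:22836335-22836559, plus strand, -250 to -26): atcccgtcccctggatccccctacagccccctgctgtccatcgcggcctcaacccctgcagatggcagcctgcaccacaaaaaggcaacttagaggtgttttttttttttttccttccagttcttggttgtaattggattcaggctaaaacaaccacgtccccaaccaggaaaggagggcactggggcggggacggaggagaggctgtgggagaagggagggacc
TIMP1 (chrX:47582186-47582407, plus strand, -250 to -29): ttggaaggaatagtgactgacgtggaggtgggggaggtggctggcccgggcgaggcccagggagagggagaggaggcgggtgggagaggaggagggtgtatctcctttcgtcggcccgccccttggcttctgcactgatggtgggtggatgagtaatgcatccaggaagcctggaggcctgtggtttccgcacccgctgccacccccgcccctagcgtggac
TIMP3 (chr22:32801455-32801704, plus strand, -250 to -1): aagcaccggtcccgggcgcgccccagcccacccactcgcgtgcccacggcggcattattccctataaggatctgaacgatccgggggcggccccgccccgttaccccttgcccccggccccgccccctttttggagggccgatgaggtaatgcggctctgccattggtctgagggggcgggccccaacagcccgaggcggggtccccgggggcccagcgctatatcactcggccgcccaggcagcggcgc
The MMP10 window held TGAATCA at -67 to -61 and TATAAA at -31 to -26, and neither set of letters occurred in the other 3 windows. Across 35116 RefSeq promoters, 6.57% of windows of 250 bases held TGANTCA and 10.7% held TATAAA or its complement TTTATA. The ETS letters AGGAAG or CTTCCT, present in 28.7% of all windows, were found in TIMP1 (AGGAAG at -87 to -82) among these 4. GC content was 34.4% for MMP10, 56.4% for MMP14, 65.8% for TIMP1 and 72.4% for TIMP3, against a median of 58% over all promoters. These are matches of letters, and binding of any factor was not measured.

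With irradiation-induced senescence, 5 of the 10 genes were called. MMP3, MMP12, MMP14 and TIMP1 were higher and MMP10 was lower in Sen(IR) than in Proliferative cells. Of all genes tested 47.2% were called in this comparison (24.8% higher, 22.4% lower), so the count of 5 is close to the background. No overlap between the 2 groups was seen for 8 of the 10 genes, and for 70.9% of all genes. The median log2 fold change of the 10 genes was 0.40 and that of all genes 0.014.

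With UK5099, 4 MMPs and 1 TIMP fell. MMP1, MMP3, MMP10, MMP12 and TIMP3 were called lower in Sen(IR+UK5099) than in Sen(IR), and none of the 10 was called higher. The background here was 20.8% of genes called, 8.76% higher and 12.1% lower. The groups did not overlap for 7 of the 10 genes, against 56.6% of all genes. The median log2 fold change of the 10 genes was -0.87, beside 0.0099 for all genes. No gene lay near this median, since the 5 called ran from -2.32 to -1.51 and the others from -0.23 to 0.17. In the same comparison 6 of the 10 fibroblast markers were lower, among them COL1A1 by 1.56 on the log2 scale (SE 0.0600, edgeR adjusted p 2.33e-15), and none was higher. The part of this shift in the result was not tested. In bulk RNA, fewer cells expressing a gene and less of its RNA per cell cannot be told apart.

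CTPI2 left all 10 genes without a call against Sen(IR). The edgeR test and the DESeq2 Wald test each called 0 of 10. An unadjusted edgeR p under 0.05, a limit passed by 7.27% of all genes, was found for 2 of 10, TIMP3 and MMP14. TIMP3 (log2 fold change -0.35, edgeR adjusted p 8.92e-05) missed a call only by the fold limit, whereas MMP14 had an edgeR adjusted p of 0.644. The groups did not overlap for 5 of the 10, MMP3, MMP10, MMP12, MMP14 and TIMP3, and for 15.1% of all genes. Here 0.166% of all genes were called, so few calls were available to any list. The comparisons of each inhibitor with Sen(IR) share the Sen(IR) libraries. Set directly against each other, Sen(IR+UK5099) was lower than Sen(IR+CTPI2) for the 5 genes MMP1, MMP3, MMP10, MMP12 and TIMP3, against a background of 19.9% of genes called and 11.7% called lower. Against Proliferative cells, UK5099 gave 6 calls, MMP12 and TIMP1 higher and MMP1, MMP3, MMP10 and TIMP3 lower, where 53.1% of all genes were called. CTPI2 gave 5 against Proliferative cells, MMP3, MMP12, MMP14 and TIMP1 higher and MMP10 lower, where 46.8% of all genes were called.

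**Figure D1:**
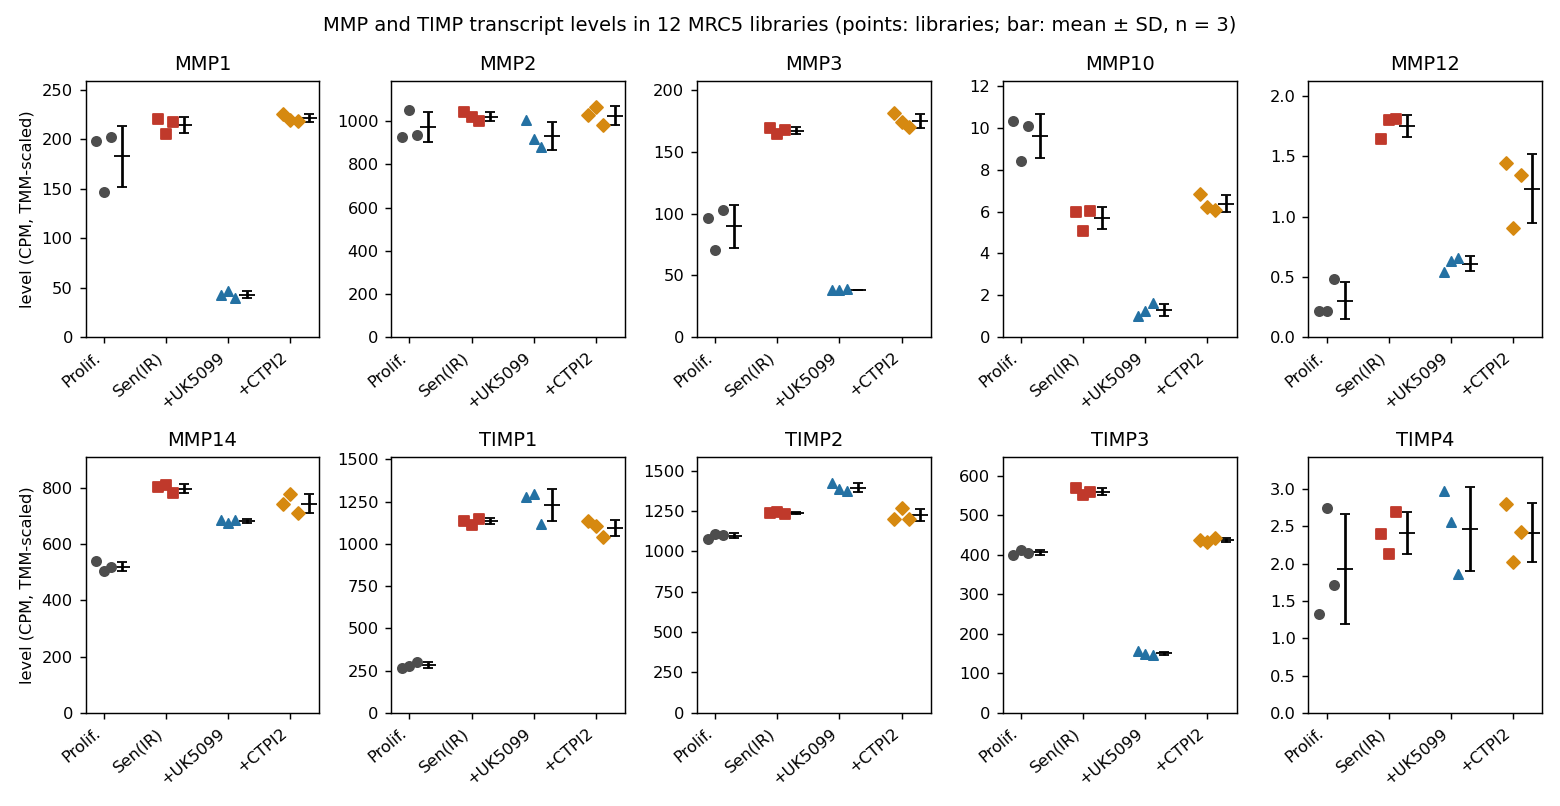
Level of each gene in CPM (y axis, from 0, scaled separately for each gene) in the 12 MRC5 libraries, with points for libraries and bars for the mean ± SD of 3 libraries in Proliferative (Prolif.), Sen(IR), Sen(IR+UK5099) (+UK5099) and Sen(IR+CTPI2) (+CTPI2). The UK5099 libraries of MMP1, MMP3, MMP10 and TIMP3 lie below every library of the other 3 groups, while TIMP1 is higher in all 9 irradiated libraries than in the 3 proliferating ones.

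**Figure D2:**
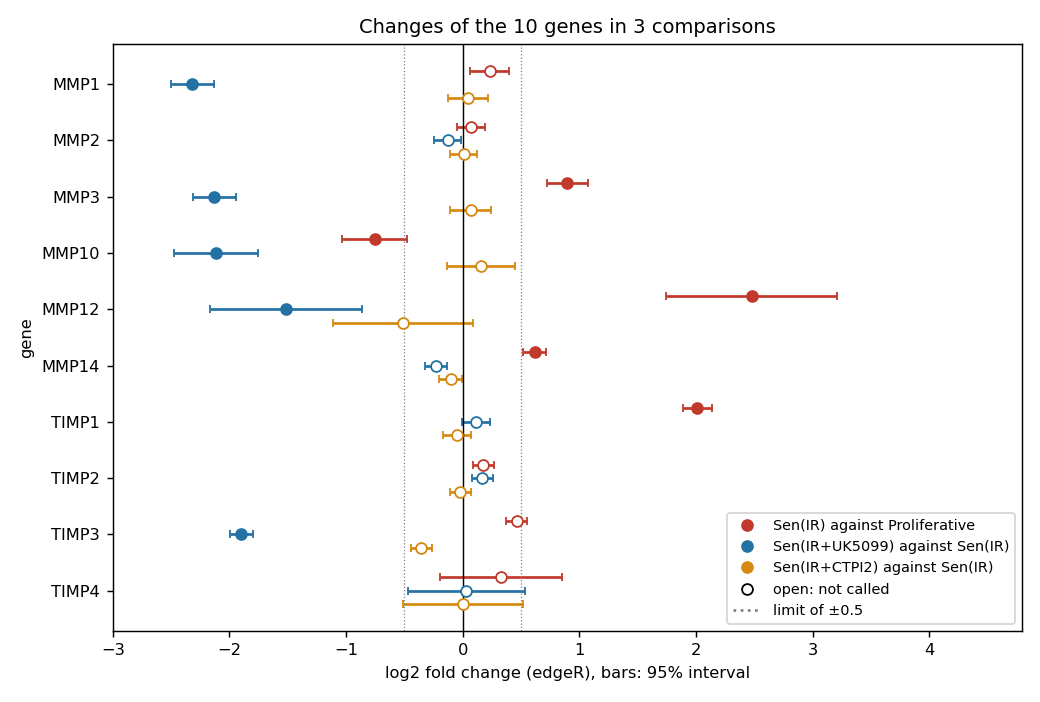
Log2 fold change of each gene (x axis, edgeR) with its 95% interval in 3 comparisons, filled where the gene was called and open where it was not, with dotted lines at the limit of 0.5 in either direction. Irradiation raised MMP12 and TIMP1 by over 2 on this scale, and UK5099 lowered MMP1, MMP3 and MMP10 by over 2 and TIMP3 by 1.90. The intervals with CTPI2 include 0 except for TIMP3 (-0.45 to -0.26) and MMP14 (-0.20 to -0.0063), neither called. The widest is that of MMP12.

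MMP1, the interstitial collagenase that cleaves fibrillar collagen, was called lower with UK5099 in each of its 3 comparisons. Its level was 198.2, 147.0 and 202.4 CPM in Proliferative, 219.9, 205.2 and 217.3 CPM in Sen(IR) libraries, 225.8, 219.2 and 218.7 CPM with CTPI2, and 42.97, 46.35 and 39.53 CPM with UK5099. The 3 UK5099 libraries stood well below the other 9, which lay close together apart from the second Proliferative library. The rise with senescence was small (log2 fold change 0.23, edgeR adjusted p 0.0171, SE 0.0823) and under the fold limit. UK5099 lowered MMP1 by 2.32 on the log2 scale (SE 0.0892) or 4.98-fold from Sen(IR) (edgeR adjusted p 2.33e-15) and 4.25-fold from Proliferative cells (log2 fold change -2.09, edgeR adjusted p 1.94e-15). With CTPI2 the log2 fold change was 0.047, with a 95% interval from -0.12 to 0.22.

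MMP3, or stromelysin-1, degrades proteoglycans, laminin and fibronectin and can activate other proMMPs. It was measured at 96.04, 70.13 and 102.6 CPM in Proliferative, 169.5, 164.1 and 167.5 CPM in Sen(IR) libraries, 181.2, 174.0 and 170.0 CPM with CTPI2, and 37.93, 38.09 and 38.56 CPM with UK5099. No group overlapped its neighbour in this order, UK5099 below Proliferative below Sen(IR) below CTPI2, although the last step was not called. MMP3 rose with senescence (log2 fold change 0.90, edgeR adjusted p 3.46e-09, SE 0.0853), and UK5099 lowered it by 2.13 on the log2 scale (SE 0.0904, edgeR adjusted p 1.33e-14). The level with UK5099 was 2.35-fold under that of Proliferative cells (edgeR adjusted p 3.32e-11). CTPI2 and Sen(IR) differed by 0.067, with an interval from -0.11 to 0.24.

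MMP10, or stromelysin-2, went the other way with senescence. Its 10.31, 8.41 and 10.10 CPM in Proliferative cells were above the 6.001, 5.07 and 6.03 CPM of Sen(IR) and the 6.83, 6.23 and 6.06 CPM with CTPI2, and far above the 1.03, 1.26 and 1.63 CPM with UK5099. Counts were 196 to 272 in Proliferative libraries and 25 to 42 with UK5099. Senescence lowered MMP10 by 0.75 on the log2 scale (SE 0.134, edgeR adjusted p 3.42e-05). The log2 fold change was -2.12 with UK5099 from Sen(IR) (SE 0.175, edgeR adjusted p 1.34e-09), so that UK5099 cells stood 7.31-fold under Proliferative cells (edgeR adjusted p 3.65e-13). The interval of the CTPI2 difference ran from -0.13 to 0.45 around 0.16.

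MMP12, the macrophage metalloelastase, had the lowest mean level per kb of exon of the 10 genes in every group. Proliferative libraries held 0.213, 0.215 and 0.483 CPM (5 to 13 counts), Sen(IR) libraries 1.65, 1.80 and 1.81 CPM (37 to 38 counts), CTPI2 libraries 1.45, 0.907 and 1.34 CPM (22 to 33 counts) and UK5099 libraries 0.538, 0.630 and 0.658 CPM (13 to 17 counts). The 4 groups did not overlap, but no Proliferative or UK5099 library held more than 17 counts. MMP12 rose 5.57-fold with senescence (log2 fold change 2.48, edgeR adjusted p 1.90e-06, SE 0.354) and was 2.86-fold lower with UK5099 than in Sen(IR) (log2 fold change -1.51, SE 0.315, edgeR adjusted p 4.27e-04). The difference with CTPI2 was -0.51, with an interval from -1.11 to 0.092, which still allows a fall of more than 2-fold. UK5099 cells were above Proliferative cells by 0.96 (edgeR adjusted p 0.0352), a call that was lost without Proliferative replicate 1 or 2 (0.77, adjusted p 0.120 and 0.119) and without UK5099 replicate 2 or 3 (adjusted p 0.0694 and 0.0795). The difference between UK5099 and CTPI2 (-1.004, adjusted p 0.0154) likewise gave adjusted p 0.0670 without the first CTPI2 library and 0.0503 without the first UK5099 library.

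**Figure D3:**
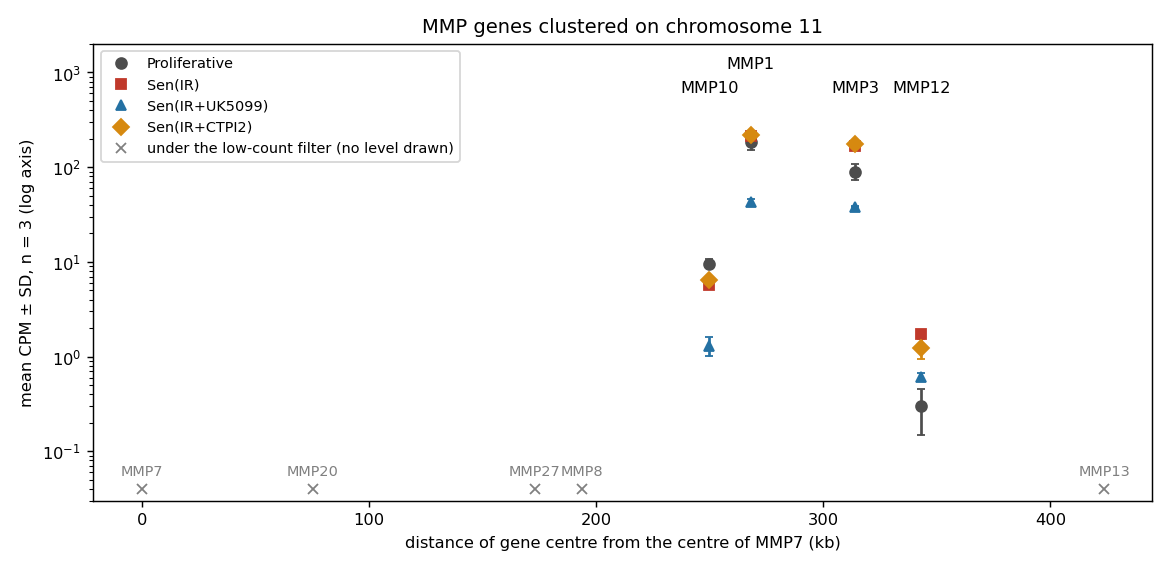
Mean level in CPM ± SD of 3 libraries (y axis, log scale) of the 4 expressed MMP genes of the chromosome 11 cluster in each group, placed by distance in kb from the centre of MMP7 (x axis). Crosses mark the 5 cluster genes that did not pass the filter, for which no level is drawn. The UK5099 mean is the lowest of the 4 groups for MMP10, MMP1 and MMP3, and lies between Proliferative and CTPI2 for MMP12.

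The 4 cluster genes therefore shared the direction with UK5099, all lower than in Sen(IR) and lower than with CTPI2, but not with senescence, where MMP3 and MMP12 rose, MMP10 fell and MMP1 moved by less than the fold limit. Summed per kb of exon, they amounted to 120.6 ± 21.1 CPM per kb (SD, n = 3) in Proliferative, 172.5 ± 4.63 in Sen(IR), 179.5 ± 4.804 with CTPI2 and 37.4 ± 1.05 with UK5099. The spread in the Proliferative group came from its second library (96.4 against 130.2 and 135.2). That library was the lowest of its group for MMP1, MMP3, MMP10 and MMP14 and the highest for MMP2, TIMP2, TIMP3 and TIMP4.

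MMP2 and MMP14 act together at the cell surface. MMP14 (MT1-MMP) is anchored in the membrane and, with TIMP2 as the bridging partner, activates proMMP2, the gelatinase that degrades basement-membrane collagen. MMP14 was measured at 538.0, 504.7 and 516.6 CPM in Proliferative, 803.0, 807.8 and 780.1 CPM in Sen(IR) libraries, 740.5, 776.5 and 709.1 CPM with CTPI2 and 685.1, 673.2 and 684.6 CPM with UK5099. All 9 irradiated libraries exceeded the 3 Proliferative ones, and no 2 of the groups overlapped. The rise with senescence was 0.62 on the log2 scale (SE 0.0468, edgeR adjusted p 7.92e-11). The difference with UK5099 was -0.23 (edgeR adjusted p 3.78e-04), under the fold limit, and that with CTPI2 was -0.10 (edgeR adjusted p 0.644).

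MMP2 differed by at most 0.14 on the log2 scale in the 6 comparisons, the smallest such maximum of the 10 genes. It stood at 927.6, 1052 and 937.2 CPM in Proliferative, 1041, 1020 and 999.5 CPM in Sen(IR) libraries, 1027, 1067 and 983.3 CPM with CTPI2 and 1004, 917.0 and 877.9 CPM with UK5099, and every pair of groups overlapped. The log2 fold changes were 0.070 (interval -0.048 to 0.19) with senescence, -0.13 (-0.25 to -0.012) with UK5099 and 0.0079 (-0.11 to 0.13) with CTPI2, so changes beyond the fold limit lay outside each interval.

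Among the inhibitors, TIMP1, a broad inhibitor of secreted MMPs, showed the change with the smallest adjusted p of the 10 genes in senescence. Its 263.8, 279.4 and 299.2 CPM in Proliferative cells compared with 1137, 1113 and 1149 CPM in Sen(IR) libraries, 1134, 1108 and 1040 CPM with CTPI2 and 1275, 1292 and 1118 CPM with UK5099. The irradiated groups overlapped one another and stood clear of the Proliferative group. TIMP1 was 4.03-fold higher in Sen(IR) (log2 fold change 2.01, SE 0.0599, edgeR adjusted p 5.40e-18). Neither inhibitor group was called against Sen(IR), with 0.12 (interval -0.0029 to 0.24) for UK5099 and -0.051 (-0.17 to 0.068) for CTPI2. With either inhibitor TIMP1 stayed above the Proliferative level, by 2.13 with UK5099 (edgeR adjusted p 1.38e-18) and 1.96 with CTPI2 (edgeR adjusted p 8.21e-18).

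TIMP2, the inhibitor that also takes part in proMMP2 activation, moved by less than the fold limit in each comparison. Its level was 1078 to 1109 CPM in Proliferative, 1233 to 1245 CPM in Sen(IR) libraries, 1198 to 1265 CPM with CTPI2 and 1374 to 1424 CPM with UK5099. The UK5099 libraries were the highest and the Proliferative libraries the lowest, while Sen(IR) and CTPI2 overlapped. The log2 fold change was 0.18 with senescence (SE 0.0433, edgeR adjusted p 9.47e-04), 0.17 with UK5099 from Sen(IR) (SE 0.0432, edgeR adjusted p 0.00282) and -0.020 with CTPI2 (interval -0.11 to 0.070).

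TIMP3, which binds the extracellular matrix and also inhibits ADAM17 and the aggrecanases, was the only TIMP called lower with UK5099. The libraries gave 400.3, 413.2 and 404.1 CPM in Proliferative, 568.2, 551.5 and 559.7 CPM in Sen(IR) libraries, 437.8, 433.6 and 443.2 CPM with CTPI2, and 155.6, 148.7 and 146.7 CPM with UK5099. The 4 groups were fully separate, in the order UK5099, Proliferative, CTPI2 and Sen(IR). Senescence raised the level by 0.46 (SE 0.0442, edgeR adjusted p 3.65e-09), just under the fold limit. UK5099 lowered it 3.73-fold from Sen(IR) (log2 fold change -1.90, SE 0.0460, edgeR adjusted p 5.22e-19), which left it 2.70-fold under Proliferative cells (edgeR adjusted p 1.03e-17). TIMP3 was also the only one of the 10 with an adjusted p under 0.05 for CTPI2, where its change of -0.35 on the log2 scale (SE 0.0442) had an edgeR adjusted p of 8.92e-05, a difference under the fold limit, where 0.486% of all genes passed that p limit at any fold. The direct comparison placed UK5099 below CTPI2 by 1.54 (SE 0.0457, edgeR adjusted p 2.45e-17).

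TIMP4, known mainly from heart and other tissues, was near the lower end of detection. It had 31 to 72 counts per library, 1.32 to 2.75 CPM in Proliferative and 1.86 to 2.98 CPM across the irradiated groups, and all groups overlapped. No comparison of TIMP4 was called, with log2 fold changes of 0.33 (interval -0.20 to 0.85) for senescence, 0.031 (-0.47 to 0.53) for UK5099 and 0.0027 (-0.51 to 0.51) for CTPI2. Leaving out the second Proliferative library turned the senescence difference into a call (0.66, edgeR adjusted p 0.0276).

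Per kb of exon, MMP2 was the highest MMP in each group, at 206.6 ± 14.7 CPM per kb (SD, n = 3) in Proliferative and 216.8 ± 4.44 in Sen(IR), followed by MMP14 at 112.4 ± 3.66 and 172.4 ± 3.20. TIMP1 at 194.2 ± 12.3 and TIMP2 at 176.4 ± 2.57 CPM per kb were similar in Proliferative cells, whereas in Sen(IR) TIMP1 reached 783.8 ± 12.6 and TIMP2 199.6 ± 0.960. The 6 MMPs summed to 439.6 ± 9.26 CPM per kb in Proliferative, 561.7 ± 8.23 in Sen(IR), 558.1 ± 17.9 with CTPI2 and 382.9 ± 14.1 with UK5099. The 4 TIMPs summed to 460.5 ± 14.9, 1107 ± 13.2, 1051 ± 35.6 and 1109 ± 69.9 CPM per kb in the same order. The ratio of the TIMP sum to the MMP sum was 1.05 ± 0.0416 in Proliferative, 1.97 ± 0.0357 in Sen(IR), 1.88 ± 0.0249 with CTPI2 and 2.90 ± 0.134 with UK5099. It was thus lowest in the proliferating libraries, where both sums were nearly equal, and highest with UK5099, where the MMP sum was lower and the TIMP sum about that of Sen(IR).

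The make-up of both sums differed as well. TIMP1 provided 42.2 ± 1.39% of the TIMP sum in Proliferative, 70.8 ± 0.318% in Sen(IR), 72.0 ± 0.886% with CTPI2 and 76.6 ± 1.23% with UK5099. The share of TIMP3 was 19.2 ± 0.541%, 11 ± 0.111%, 9.08 ± 0.399% and 2.96 ± 0.147% in the same order. MMP2 and MMP14 together made up 72.6 ± 4.27%, 69.3 ± 0.718%, 67.8 ± 0.964% and 90.2 ± 0.445% of the MMP sum. These sums and ratios are a description with no test, they weight genes by transcript number rather than by protein or affinity, and they depend on the exon lengths of the annotation.

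**Figure D4:**
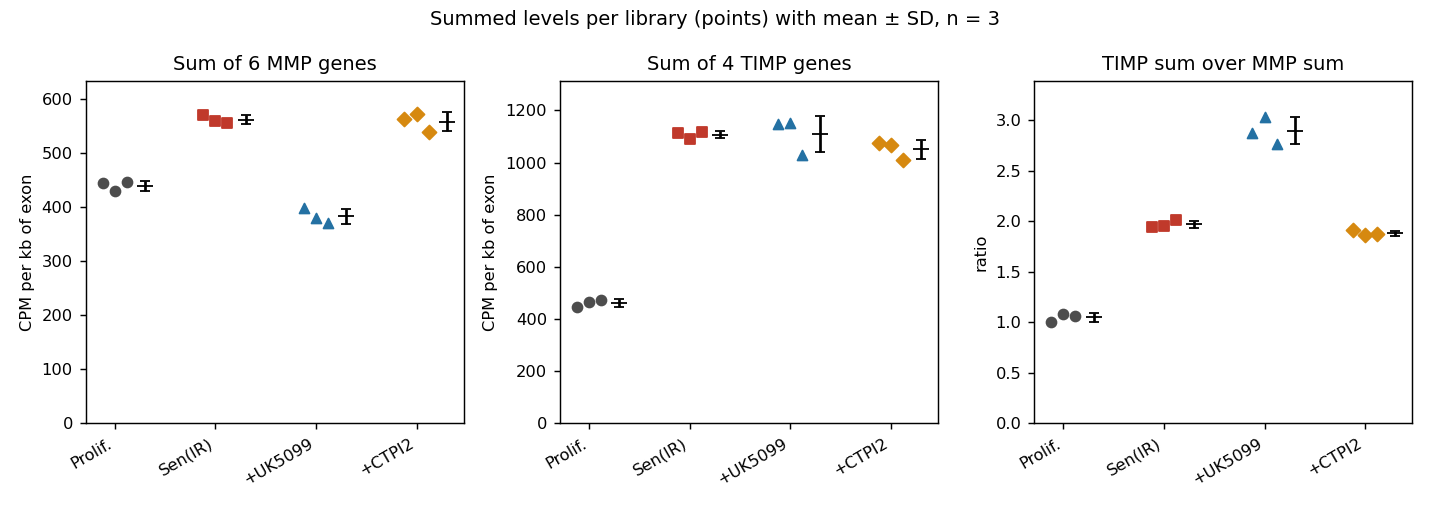
Summed level of the 6 MMP genes and of the 4 TIMP genes in CPM per kb of exon, and the ratio of the TIMP sum to the MMP sum (y axes from 0), for the 3 libraries of each group with mean ± SD. The MMP sum is lowest with UK5099 (371.2 to 398.6), the TIMP sum is lowest in Proliferative (444.2 to 473.3), and the ratio reaches 2.77 to 3.04 with UK5099.

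The other genes of the pathway were read from lists written by symbol. Of all genes tested, 24.8% were called higher and 22.4% lower with senescence. With UK5099 from Sen(IR) these shares were 8.76% and 12.1%. Of 17 other MMP genes, 10 did not pass the filter and had at most 13 counts in any library, among them the gelatinase MMP9 with 1 count in all. Among the 7 tested, 4 were higher and 1 lower in Sen(IR) than in Proliferative, with MMP28 (log2 fold change 2.28, SE 0.685, edgeR adjusted p 0.00555, 0 to 5 counts in Proliferative libraries), MMP24 (2.27, SE 0.194, adjusted p 6.12e-10) and the membrane-type MMP16 (-0.52, SE 0.106, adjusted p 1.73e-04) as the largest in each direction. With UK5099, MMP28 (1.67, SE 0.435, edgeR adjusted p 0.00321) and MMP11 (0.83, SE 0.143, adjusted p 5.36e-05) were higher than in Sen(IR), and MMP16 was lower (-1.53, SE 0.125, adjusted p 1.21e-09). Thus 3 of the 7 changed with UK5099, and not in the same direction, where 20.8% of all genes were called.

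Activators, inhibitors and receptors of MMPs comprised 22 tested genes, of which 14 were higher and 4 lower with senescence (24.8% and 22.4% of all genes). PLAT, the tissue plasminogen activator (2.27, SE 0.0827, edgeR adjusted p 1.75e-16), and LRP1, an endocytic receptor that clears MMPs and TIMPs (1.47, SE 0.112, adjusted p 8.52e-11), rose most, and the thrombospondins THBS1 (-1.41, adjusted p 6.81e-17) and THBS2 (-1.36, adjusted p 1.50e-09) fell most. RECK, a membrane-bound MMP inhibitor named here after its values were seen, went from 191.1 ± 18.1 to 438.3 ± 2.55 CPM (SD, n = 3) with senescence. RECK was at 447.3 ± 10.4 CPM with UK5099 and 379.4 ± 11.9 CPM with CTPI2. In UK5099 cells 8 of the 22 were lower and 1 was higher than in Sen(IR) (12.1% and 8.76% of all genes). PLAU, the urokinase that generates plasmin and thereby activates several proMMPs, fell by 3.76 on the log2 scale (SE 0.0706, edgeR adjusted p 5.76e-21), from 1625 ± 36.2 CPM in Sen(IR) to 120.2 ± 14.4 CPM, while it stood at 1412 ± 44.7 CPM with CTPI2. Its receptor PLAUR fell by 1.67 (SE 0.0888, adjusted p 7.36e-13), and THBS1 was higher by 0.53 (SE 0.0479, adjusted p 6.13e-09). The median log2 fold change of the list was 0.57 with senescence and -0.32 with UK5099.

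Matrix substrates of MMPs, 21 genes that all passed the filter, included 4 higher and 7 lower genes in senescence (24.8% and 22.4% of all genes). The laminin chain LAMA4 (0.85, adjusted p 3.75e-08) and the basement-membrane proteoglycan HSPG2 (0.79, adjusted p 1.62e-05) were the largest edgeR calls upwards. Elastin (ELN), the substrate of MMP12, went from 39.9 ± 7.50 CPM to 0.217 ± 0.0623 CPM (SD, n = 3; 3 to 6 counts per Sen(IR) library), and tenascin C (TNC) fell by 2.69 (SE 0.0629, edgeR adjusted p 9.88e-20). With UK5099 0 of the 21 were higher and 11 were lower than in Sen(IR), against 8.76% and 12.1% of all genes. Among the 11 was TNC (-2.03, SE 0.0702, edgeR adjusted p 3.21e-16), and 18 of 21 had an unadjusted edgeR p under 0.05 (51.6% of all genes). Of the 11, 7 were collagen genes. The list's median was -0.11 with senescence and -0.58 with UK5099.

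Of 15 AP-1 and ETS factor genes, 2 were higher and 5 lower with senescence, where 24.8% and 22.4% of all genes were. ATF3 (1.57, SE 0.0663, edgeR adjusted p 2.48e-15) and FOSB (1.01, SE 0.320, adjusted p 0.00789) rose, and ETV4 (-2.56, SE 0.119, adjusted p 1.38e-14) and FOSL1 (-1.81, SE 0.113, adjusted p 2.48e-12) fell most. With UK5099, 7 of the 15 were lower and 0 higher than in Sen(IR) (12.1% and 8.76% of all genes). An unadjusted edgeR p under 0.05 was found for 13 of 15, against 51.6% of all genes. The largest falls were those of FOS (-1.32, SE 0.357, edgeR adjusted p 0.00454, from 1.14 ± 0.162 to 0.456 ± 0.0450 CPM) and ETV4 (-1.19, SE 0.161, adjusted p 2.58e-06). Of 9 ADAM and ADAMTS proteases listed, 3 were higher and 2 lower in senescence (24.8% and 22.4% of all genes). Whether TIMP3 inhibits each of them was not measured. ADAM15 (1.29, SE 0.0669, edgeR adjusted p 8.90e-14) and the aggrecanase ADAMTS5 (0.98, SE 0.143, adjusted p 2.53e-06) were higher. ADAM19 (-1.54, SE 0.106, edgeR adjusted p 1.45e-11) and ADAMTS2 (-1.37, SE 0.0550, adjusted p 1.03e-15) were lower. UK5099 lowered 5 of the 9 and raised 0 (12.1% and 8.76% of all genes), with 8 of 9 at an unadjusted edgeR p under 0.05 (51.6% of all genes). The largest falls were those of ADAMTS5 (-1.48, SE 0.146, edgeR adjusted p 2.57e-08) and ADAM19 (-1.37, SE 0.117, adjusted p 2.42e-09). Under CTPI2 edgeR called 0 genes on these 5 lists, where 0.166% of all genes were called. An unadjusted edgeR p under 0.05 was found for 1 of 7, 7 of 22, 9 of 21, 2 of 15 and 1 of 9 genes in the order given, against 7.27% of all genes.

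Across the 12 libraries the genes whose log2 CPM followed each member most closely were PKM (Pearson r = 0.994) and BMP2 (0.994) for MMP1, KYNU (0.990) and SERPINB2 (0.989) for MMP3, MMP16 (0.990) and CAV1 (0.988) for MMP10, ALG2 (0.983) for MMP12, SUSD6 (0.989) and POFUT2 (0.987) for MMP14, ITFG1 (0.998) and REEP2 (0.997) for TIMP1, PIP4K2C (0.990) and BACE1 (0.985) for TIMP2 and SEMA3A (0.994) and TRIM55 (0.992) for TIMP3. MMP2 and TIMP4, which were called in no comparison, had lower best values of 0.912 (CABLES1) and 0.841 (AC006333.2). Within the 10 genes, MMP1 and TIMP3 gave r = 0.972, MMP1 and MMP3 0.942, MMP14 and TIMP1 0.907, and MMP10 and TIMP2 -0.933. The libraries fall into groups, so these values describe mainly how the 4 group means line up.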

How the data were processed

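RNA was sequenced as paired ends from 12 MRC5 libraries. Per the methods, the authors used Trimmomatic 0.36 for trimming, STAR 2.5.2b for alignment to GRCh38, and featureCounts (Subread 1.5.2) to count uniquely mapped exon reads by gene identifier. The deposited table holds these raw counts, without normalization. Library strandedness is not given in the sources used here. All sample columns were mapped by name, and 0 columns were left unused.

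Tests used edgeR 4.0.16 under R 4.3.3. Low counts were filtered with filterByExpr by group, libraries were scaled by TMM, and all 12 libraries entered glmQLFit and glmQLFTest without covariates. The 16251 genes tested held 99.91% of the counts. Benjamini-Hochberg adjustment ran over all of them, with limits of 0.05 on the adjusted p and 0.5 on the absolute log2 fold change. The SE is the absolute log2 fold change divided by the square root of F, and intervals are 95% from the t distribution. Replicates varied by 6.12% (square root of the common dispersion). Intervals and p-values cover the spread between libraries. The labels do not say that replicates came from separate cultures, so this spread may be technical. Library pairs within groups differed by 2.24 to 12.5 times sampling noise (chi-square per gene), so none was taken as a duplicate.

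All 10 genes are named. From 5 lists written by symbol, the 2 called genes with the largest change in each direction are named for the 3 comparisons with Sen(IR), and for each of the 10 genes the 2 most correlated genes with a mean log2 CPM above 1. A gene that this rule would name is not reported here. Genes and lists were chosen with earlier results of these data known. Exon lengths, overlaps and positions came from GENCODE v44, and promoters from RefSeq, which held 5 of the 10 genes. Alternatives were upper-quartile or RLE scaling, no filter, DESeq2 1.42.0 (Wald test), a fit of the 2 compared groups, a replicate block, unadjusted p, a log2 limit of 1 and leaving out each library. The edgeR filter, scaling, test and limits were tried on simulated counts for 1 comparison of 2 groups. The other steps were not tried in this way. The protein, chromatin, metabolite and animal measurements of the study were not analysed here.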

Additional observations from a re-analysis of the deposited data

How the results depend on the processing

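When the fold limit was raised to 1 (log2), 2 genes (MMP12 and TIMP1) in place of 5 were called in Sen(IR) against Proliferative and 2 in place of 5 in Sen(IR+CTPI2) against Proliferative. In Sen(IR+UK5099) against Proliferative 5 in place of 6 were called, as MMP12 (0.96) was lost. All 5 calls of UK5099 against Sen(IR) remained under each alternative run. Over all alternatives 840 values of the 10 genes were compared with the main run. Of these, 801 kept their direction and side of the limits, 18 lost a call, 5 gained one and 16 changed sign. The unadjusted p and the log2 limit of 1 kept the main fit and moved only a limit, so their values could not change sign. The former could not lose a call and the latter could not gain one. The 16 were values of MMP2 or TIMP4 near 0. For MMP2 with CTPI2 against Sen(IR), upper-quartile scaling gave -0.00083, and leaving out a library gave -0.021 to 0.039. For MMP2 with UK5099 against Proliferative, upper-quartile scaling gave 0.081 and leaving out a library -0.12 to 0.00082, the latter without Proliferative replicate 2. For TIMP4 with CTPI2 against Sen(IR), the DESeq2 Wald test gave -0.0040, no filter -0.0038, RLE -0.0044 and upper-quartile -0.0063, and leaving out a library gave -0.12 to 0.12. Leaving out a library also turned TIMP4 with UK5099 to values from -0.12 to 0.20 against Sen(IR) and from -0.12 to 0.20 against CTPI2.

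Upper-quartile scaling shifted the median of all genes by 0.12, 0.11 and 0.14 in the comparisons of Sen(IR), CTPI2 and UK5099 with Proliferative. It added calls of TIMP3 in Sen(IR) (0.58) and MMP14 with UK5099 (0.53) against Proliferative, and ended that of MMP10 with CTPI2 against Proliferative (-0.48). MMP12 with UK5099 against Proliferative was also lost without the filter (adjusted p 0.0660) and with only the 2 groups in the fit (0.0640). MMP14 with CTPI2 against Proliferative fell under the limit without the second Proliferative library (0.493) or the second CTPI2 library (0.480). The cause was not tested. TIMP4 against Proliferative was called without the second Proliferative library in all 3 irradiated groups (0.66 in Sen(IR), 0.66 with CTPI2 and 0.69 with UK5099).

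Over all genes, the limit of 1 lowered the calls to 4030, 1511 and 11 for Sen(IR) against Proliferative, UK5099 against Sen(IR) and CTPI2 against Sen(IR), to 1417 for UK5099 against CTPI2, and to 4967 and 4028 for UK5099 and CTPI2 against Proliferative. The 27 calls of CTPI2 against Sen(IR) became 46 without the filter, 296 at an unadjusted p, 16 without the third Sen(IR) library and 15 without the second CTPI2 library. No pairing by replicate number was seen: correlations of same-numbered deviations ran from -0.051 to 0.042 over 18 pairs, none over 0.1. Of 12 libraries, 5 correlated best with their own number. These correlations give genes with low counts the same weight as others, so they cannot settle whether the libraries were paired. The replicate block left every call of the 10 genes in place and gave 7649, 3360 and 25 calls over all genes in the 3 comparisons with Sen(IR), in place of 7677, 3386 and 27. Depth limits MMP12 and TIMP4 most, with at most 38 and 72 counts per library.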
